A study of Homo sapiens with 4 samples.

Results

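The small ribosomal subunit protein genes described here are 28 listed genes, RPSA, FAU and genes of the RPS series, out of 19663 protein-coding genes. They were chosen by name, as genes that encode proteins of the 40S subunit, and not by any measured value. Sites bound by c-MYC had been mapped by ChIP-seq, in which immunoprecipitated chromatin is sequenced, in the established human pancreatic ductal adenocarcinoma (PDAC) line MIA PaCa-2 after 8 h with DMSO, with the inhibitor AMG510 (100 nM) or with the MEK inhibitor trametinib (10 nM). There was 1 c-MYC library per treatment and 1 further library made with non-specific IgG from the DMSO cells, so that no IgG library stood beside either inhibitor. No group was replicated and a single cell line was used. Differences between treatments are therefore differences between 2 libraries, without a replicate check and without a test. Peak lists hold no expression values, so the identity of the cells could not be checked against marker genes.

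The small subunit of the cytoplasmic ribosome binds the mRNA and decodes it. Its proteins are assembled with the 18S rRNA in the nucleolus, and they fall into those of the head, which swivels over the mRNA path, and those of the body and platform. Ribosomal protein genes are typically short, with a short first exon, and their mRNAs carry a pyrimidine-rich start, the terminal oligopyrimidine (TOP) tract, that places their translation under mTOR. c-MYC, paired with MAX, binds the E-box CACGTG and is known to act on ribosomal protein genes as part of its control of cell growth.

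For each gene, a promoter peak was a peak with its summit at most 1 kb from the TSS (transcription start site) of any protein-coding transcript of that gene. Where a gene had several, the one of highest fold enrichment was its leading peak. Tags are aligned reads counted by the peak caller, and the pileup is the number of tags at the summit. The fold enrichment sets that pileup over the local background of the same library. The rank of a peak is the share of all peaks of its list with a lower fold enrichment.

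Canonical E-boxes close to the summits are printed first because they are the letters that c-MYC and MAX recognise. At 5 of the 18 genes with a promoter peak in all 3 c-MYC libraries, an E-box lay within 100 bp of the leading summit in each. By library, 21.7% of members with a peak in DMSO, 27.3% in AMG510 and 23.8% in trametinib had such an E-box. Over all genes with a promoter peak the shares were 17.3%, 14.5% and 17.6%, within the counting intervals of the members. Each stretch is read 5′ to 3′ along the strand of the gene on GRCh38, with the E-box in capitals.
RPSA: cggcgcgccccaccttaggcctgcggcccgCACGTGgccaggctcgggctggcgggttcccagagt
RPS2: tttccgacaaaaCACGTGagtcctgttggt
RPS19: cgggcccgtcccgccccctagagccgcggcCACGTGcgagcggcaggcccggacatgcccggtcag
RPS23: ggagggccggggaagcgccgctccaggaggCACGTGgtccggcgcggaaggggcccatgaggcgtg
RPS27A: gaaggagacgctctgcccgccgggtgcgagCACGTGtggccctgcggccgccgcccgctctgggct

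The RPSA stretch is chr3:39406884-39406949 on the plus strand, in intron 1, and its E-box starts 194 bp downstream of the TSS. The RPS2 stretch, chr16:1964792-1964821 on the minus strand, runs across the junction of exon 1 and intron 1, where the E-box starts 17 bp downstream. In RPS19 (chr19:41860385-41860450, plus strand) and RPS23 (chr5:82278141-82278206, minus strand) the E-box is in intron 1, 160 and 178 bp downstream. The RPS27A stretch, chr2:55233116-55233181 on the plus strand, is in intron 2, with the E-box 458 bp downstream. From E-box to summit the distances in DMSO were 4 bp at RPSA, 74 bp at RPS2, 10 bp at RPS19, 59 bp at RPS23 and 32 bp at RPS27A.

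RPS28 had an E-box beside a summit in AMG510 alone, and RPS24 had the noncanonical form CACGCG, 4 bp from the summit in AMG510, 25 bp in trametinib and 41 bp in DMSO. These are printed to set beside the canonical sites.
RPS28: ctctccccgaagCACGTGactcctctccgc
RPS24: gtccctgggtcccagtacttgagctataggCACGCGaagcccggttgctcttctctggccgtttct

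The RPS28 stretch (chr19:8321478-8321507, plus strand) spans the TSS, with the E-box starting 6 bp upstream. That of RPS24 (chr10:78033958-78034023, plus strand) is in intron 1, 125 bp downstream. RPS9 and FAU had no c-MYC peak in any library although each carries a canonical E-box in an intron near its start, shown here for comparison.
RPS9: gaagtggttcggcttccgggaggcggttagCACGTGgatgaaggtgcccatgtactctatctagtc
FAU: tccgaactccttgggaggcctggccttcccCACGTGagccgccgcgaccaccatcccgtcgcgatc

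RPS9 carries it in intron 2, 475 bp downstream of the TSS (chr19:54201303-54201368, plus strand), and FAU in intron 1, 191 bp downstream (chr11:65121908-65121973, minus strand).

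The first comparison asked how many of the genes were occupied in each library. c-MYC promoter peaks were present at 23 of the 28 genes in DMSO (82.1%, exact 95% binomial interval 63.1 to 93.9), at 22 in AMG510 (78.6%, 59 to 91.7) and at 21 in trametinib (75%, 55.1 to 89.3). Over all protein-coding genes the shares were 24.2%, 15.3% and 11.8%, respectively. The IgG list held no promoter peak at any of the 28 genes, which allows a share of up to 12.3% by the same interval, against 0.559% of all genes. The nearest IgG summit to any of their starts lay 34316 bp away, at RPS6. In all 3 c-MYC lists a promoter peak was present at 18 genes (64.3%, 44.1 to 81.4), against 5.59% of all protein-coding genes. These intervals treat genes as independent draws and cover counting error only.

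**Figure D1:**
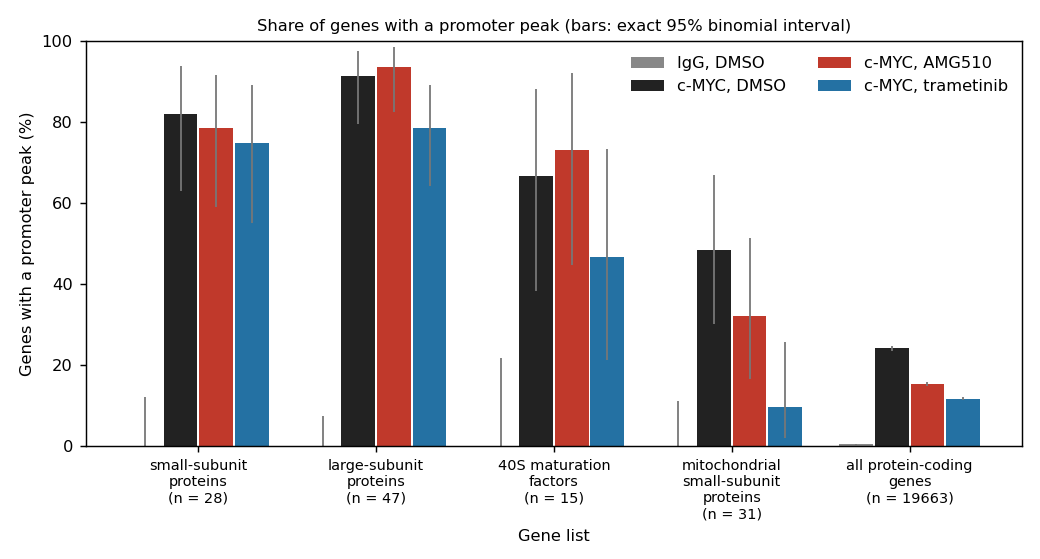
Share of genes with a promoter peak (y axis, %) for 5 gene lists (x axis), with 1 bar per library and the exact 95% binomial interval as a line. Small-subunit genes reached 82.1% in DMSO and 75% in trametinib, next to the large-subunit genes and above all protein-coding genes in each c-MYC library, and IgG bars are at 0 for every list but the last.

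Set against other ribosome genes, the small subunit stood beside the large one. Of 47 genes for large-subunit proteins, 43 were occupied in DMSO, 44 in AMG510 and 37 in trametinib. Of 15 genes for factors that mature the 40S subunit, 10, 11 and 7 had one. The 31 genes for proteins of the mitochondrial small subunit, the counterpart that translates the mitochondrial genome, had one at 15, 10 and 3 genes. Both cytoplasmic subunits were thus occupied at most of their genes in every c-MYC library. The mitochondrial share was 48.4% in DMSO and 32.3% in AMG510, above the 24.2% and 15.3% of all protein-coding genes. In trametinib it was 9.68% (exact 95% interval 2.04 to 25.8), near the 11.8% of all protein-coding genes.

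Presence was also counted by region of the subunit. Of 12 genes for proteins of the head, 11 were occupied in DMSO, 11 in AMG510 and 9 in trametinib. Of 16 genes for the body and platform, 12, 11 and 12 had one. Peaks in all 3 c-MYC lists were present at 9 of the 12 head genes (75%, exact 95% interval 42.8 to 94.5) and 9 of the 16 body genes (56.2%, 29.9 to 80.2). The difference between the regions was not tested.

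Peaks at these genes were among the strongest of each list. The median rank by fold enrichment was 94.3% in DMSO (23 genes, range 3.03 to 99.7), 96.3% in AMG510 (22 genes, 5.08 to 99.8) and 95.1% in trametinib (21 genes, 28 to 99.7). For all protein-coding genes with a promoter peak the medians were 64.9%, 65.5% and 59.0%. A rank of at least 90% was reached by 15 of 23 genes in DMSO, 15 of 22 in AMG510 and 15 of 21 in trametinib, that is 65.2%, 68.2% and 71.4%, against 17.7%, 19.8% and 15.7% of all genes with a promoter peak. The pileup had a median of 29 tags in DMSO, 21 tags in AMG510 and 25 tags in trametinib, where all genes with a promoter peak had 16, 13 and 14. The peaks were also wider, with medians of 374, 293.5 and 364 bp against 294, 235 and 240.5 bp over all genes, while those of the large subunit were wider still, at 502, 346 and 383 bp. Genes of the large subunit had median ranks of 95.05%, 96.1% and 95.8%, so that the 2 subunits were close in this measure too.

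**Figure D2:**
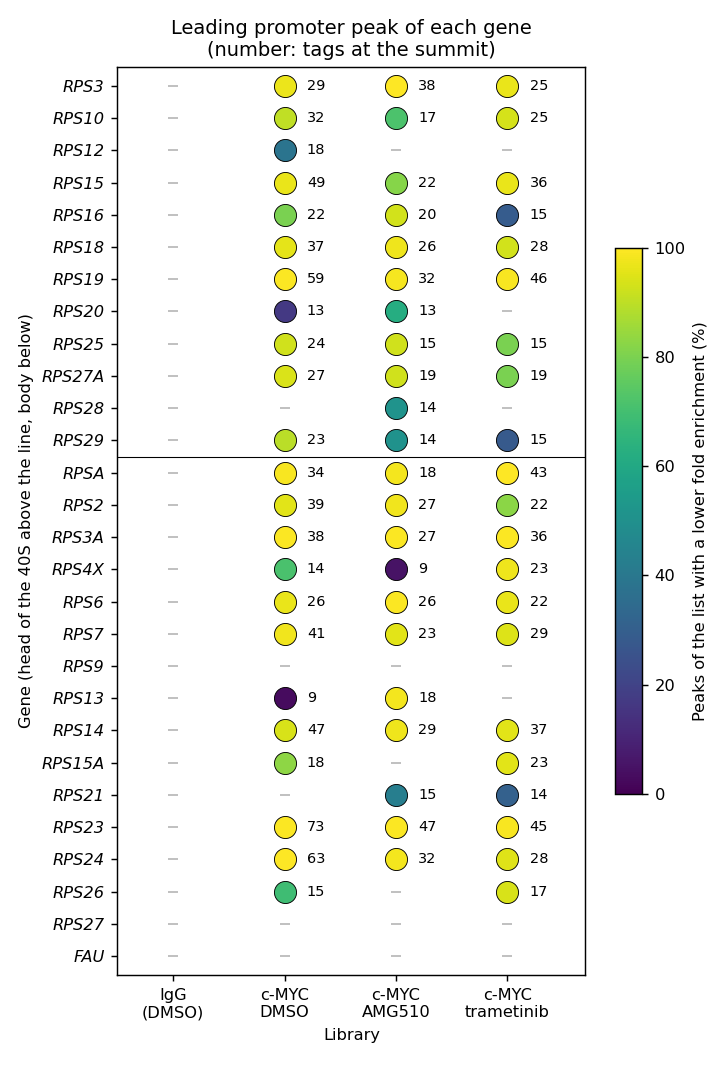
Each row is 1 gene and each column 1 library, with a point where a promoter peak was called, coloured by the rank of its fold enrichment within the list (%) and labelled with the tags at the summit, and a dash where none was called. RPS9, RPS27 and FAU have no point, the IgG column is empty, and most c-MYC points are at the yellow end.

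Within the subunit the strongest genes recurred. The 5 members of highest fold enrichment were RPS24, RPS23, RPS19, RPS3A and RPSA in DMSO, RPS3, RPS23, RPS6, RPS3A and RPS19 in AMG510, and RPSA, RPS3A, RPS19, RPS23 and RPS4X in trametinib. RPS3A, RPS19 and RPS23 were in each of these sets. The highest pileup at any member was that of RPS23 in DMSO, at 73 tags (exact 95% Poisson interval 57.2 to 91.8), and the lowest was 9 tags (4.12 to 17.1), at RPS13 in DMSO and at RPS4X in AMG510. Among the 50 promoter peaks of highest fold enrichment in each list, those of 5 members were found in DMSO and those of 4 in each inhibitor library. The lists held 4617 promoter peaks in DMSO, 2806 in AMG510 and 2124 in trametinib. Of the 47 large-subunit genes, 2, 8 and 9 were among the same 50.

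The 9 head genes with a peak in all 3 lists are given first. RPS3, which lines the channel by which mRNA enters the subunit, had its leading peak at chr11:75399469-75399813 in DMSO, chr11:75399510-75400079 in AMG510 and chr11:75399508-75399870 in trametinib, with the summit 123, 137 and 81 bp downstream of the start. RPS3 summits held 29 tags in DMSO, 38 in AMG510 and 25 in trametinib, with fold enrichments of 8.58, 12.5 and 7.73 that exceeded 96.9, 99.8 and 96.9% of the peaks of each list. AMG510 was the highest of the 3 libraries here. RPS10, a head protein that is ubiquitinated when ribosomes collide, had its leading peak at chr6:34425859-34426118 in DMSO, chr6:34425511-34426071 in AMG510 and chr6:34425660-34426119 in trametinib, with the summit 86, 438 and 70 bp downstream of the start. The RPS10 pileup was 32 tags in DMSO, 17 in AMG510 and 25 in trametinib, its fold enrichment was 6.55, 4.91 and 6.45, and its rank 90.5, 71.6 and 93.5%. DMSO was the highest in tags and fold enrichment, and trametinib in rank. DMSO also held a second, weaker RPS10 peak 472 bp downstream (20 tags, rank 29.4%) in the part of intron 1 where the AMG510 summit lay. RPS15, whose tail reaches towards the decoding site, had its leading peak at chr19:1438383-1438785 in DMSO, chr19:1438427-1438805 in AMG510 and chr19:1438442-1438826 in trametinib, with the summit 145, 266 and 168 bp downstream of the start. In DMSO, AMG510 and trametinib, RPS15 reached 49, 22 and 36 tags, fold enrichments of 8.32, 5.2 and 7.63 and ranks of 96.5, 82 and 96.7%. DMSO was the highest in pileup, trametinib was slightly the highest in rank, and AMG510 was the lowest in both. RPS16, whose tail contacts the tRNA in the peptidyl site, had its leading peak at chr19:39435775-39436000 in DMSO, chr19:39435729-39435916 in AMG510 and chr19:39435823-39435985 in trametinib, with the summit 66, 126 and 80 bp downstream of the start. RPS16 summits held 22 tags in DMSO, 20 in AMG510 and 15 in trametinib, with fold enrichments of 5.54, 5.9 and 4.12 that exceeded 79.7, 93.1 and 28.8% of the peaks of each list. The DMSO and trametinib summits of RPS16 were in coding exon 1 and that of AMG510 in intron 1, and the rank was high in AMG510 and low in trametinib.

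RPS18, which takes part in a bridge to the large subunit, had its leading peak at chr6:33272081-33272454 in DMSO, chr6:33272061-33272290 in AMG510 and chr6:33272033-33272338 in trametinib, with the summit 141, 70 and 124 bp downstream of the start. The RPS18 pileup was 37 tags in DMSO, 26 in AMG510 and 28 in trametinib, its fold enrichment was 7.91, 6.97 and 6.44, and its rank 95.8, 97.3 and 93.4%. DMSO had the most tags and AMG510 the highest rank. RPS19, the gene most often mutated in Diamond-Blackfan anaemia, had its leading peak at chr19:41860234-41860826 in DMSO, chr19:41860283-41860553 in AMG510 and chr19:41860239-41860596 in trametinib, with the summit 172, 167 and 129 bp downstream of the start. In DMSO, AMG510 and trametinib, RPS19 reached 59, 32 and 46 tags, fold enrichments of 11.3, 8.25 and 10.2 and ranks of 99.3, 98.7 and 99.1%. All 3 were near the top of their lists, with DMSO the highest in tags. RPS25, which several viral internal ribosome entry sites need for initiation, had its leading peak at chr11:119017943-119018355 in DMSO, chr11:119018086-119018306 in AMG510 and chr11:119018007-119018387 in trametinib, with the summit 122, 116 and 167 bp downstream of the start. RPS25 summits held 24 tags in DMSO, 15 in AMG510 and 15 in trametinib, with fold enrichments of 6.94, 5.83 and 5.38 that exceeded 92.7, 92.8 and 80% of the peaks of each list. The pileups under both inhibitors were equal and below DMSO. RPS27A, made as a fusion to ubiquitin, had its leading peak at chr2:55232933-55233263 in DMSO, chr2:55233054-55233341 in AMG510 and chr2:55232677-55233277 in trametinib, with the summit 492, 471 and 466 bp downstream of the start. The RPS27A pileup was 27 tags in DMSO, 19 in AMG510 and 19 in trametinib, its fold enrichment was 7.38, 5.82 and 5.37, and its rank 94.3, 92.7 and 79.8%. RPS27A summits were the farthest from the start of any leading summit, in intron 2 in all 3 libraries. RPS29, a zinc-binding protein of the head, had its leading peak at chr14:49586005-49586342 in DMSO, chr14:49586084-49586333 in AMG510 and chr14:49586102-49586397 in trametinib, with the summit 169, 155 and 143 bp downstream of the start. In DMSO, AMG510 and trametinib, RPS29 reached 23, 14 and 15 tags, fold enrichments of 6.44, 4.43 and 4.08 and ranks of 89.7, 50.4 and 28%. The RPS29 peak was high in its list in DMSO and below the middle in trametinib, and AMG510 held a second RPS29 peak (15 tags) 3 bp from another annotated start of the gene.

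The 9 body and platform genes with a peak in all 3 lists included the highest pileups. RPSA, also known as the laminin receptor, had its leading peak at chr3:39406737-39407053 in DMSO, chr3:39406757-39407048 in AMG510 and chr3:39406738-39407054 in trametinib, with the summit 192, 181 and 178 bp downstream of the start. RPSA summits held 34 tags in DMSO, 18 in AMG510 and 43 in trametinib, with fold enrichments of 11.1, 7.77 and 13.5 that exceeded 99.2, 98.3 and 99.7% of the peaks of each list. RPSA was the strongest member in trametinib, where its fold enrichment was the highest of the leading promoter peaks of all 2324 genes with one. RPS2, a protein at the mRNA entry, had its leading peak at chr16:1964474-1964862 in DMSO, chr16:1964436-1964842 in AMG510 and chr16:1964427-1964810 in trametinib, with the summit 94, 78 and 87 bp downstream of the start. The RPS2 pileup was 39 tags in DMSO, 27 in AMG510 and 22 in trametinib, its fold enrichment was 7.83, 7.38 and 5.53, and its rank 95.6, 97.9 and 82.7%. DMSO was the highest in tags and trametinib the lowest in rank. RPS3A, a protein near the mRNA exit, had its leading peak at chr4:151099565-151100025 in DMSO, chr4:151099579-151100083 in AMG510 and chr4:151099599-151100123 in trametinib, with the summit 102, 223 and 117 bp downstream of the start. In DMSO, AMG510 and trametinib, RPS3A reached 38, 27 and 36 tags, fold enrichments of 11.2, 9.21 and 10.8 and ranks of 99.2, 99.3 and 99.4%. RPS3A kept a rank above 99% in all 3 libraries, with little between DMSO and trametinib in tags. RPS4X, encoded on the X chromosome, had its leading peak at chrX:72276795-72277239 in DMSO, chrX:72276623-72276917 in AMG510 and chrX:72277000-72277308 in trametinib, with the summit 149, 346 and 106 bp downstream of the start. RPS4X summits held 14 tags in DMSO, 9 in AMG510 and 23 in trametinib, with fold enrichments of 5.18, 3.43 and 8.3 that exceeded 71.3, 5.08 and 97.6% of the peaks of each list. Trametinib was the highest and AMG510 the lowest, with a peak just above the fewest tags called in its list (7).

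RPS6, the substrate of S6 kinase in mTOR signalling, had its leading peak at chr9:19379720-19380293 in DMSO, chr9:19379861-19380199 in AMG510 and chr9:19379778-19380168 in trametinib, with the summit 251, 183 and 235 bp downstream of the start. The RPS6 pileup was 26 tags in DMSO, 26 in AMG510 and 22 in trametinib, its fold enrichment was 8.5, 9.52 and 7.65, and its rank 96.8, 99.4 and 96.8%. RPS6 pileups were nearly level over the 3 libraries. RPS7, which also binds the p53 regulator MDM2, had its leading peak at chr2:3575157-3575747 in DMSO, chr2:3575373-3575770 in AMG510 and chr2:3575321-3576159 in trametinib, with the summit 200, 193 and 208 bp downstream of the start. In DMSO, AMG510 and trametinib, RPS7 reached 41, 23 and 29 tags, fold enrichments of 9.07, 6.3 and 6.78 and ranks of 97.8, 95.4 and 94.5%. DMSO was the highest in tags, and all 3 ranks were high. RPS14, a platform protein near the mRNA exit, had its leading peak at chr5:150449027-150449753 in DMSO, chr5:150449178-150449766 in AMG510 and chr5:150449084-150449743 in trametinib, with the summit 136, 97 and 115 bp downstream of the start. RPS14 summits held 47 tags in DMSO, 29 in AMG510 and 37 in trametinib, with fold enrichments of 7.22, 7.11 and 7.01 that exceeded 93.8, 97.6 and 95.4% of the peaks of each list. The tags of RPS14 differed more than its fold enrichments, which were nearly level. RPS23, which sits at the decoding centre, had its leading peak at chr5:82277967-82278398 in DMSO, chr5:82277946-82278430 in AMG510 and chr5:82277967-82278330 in trametinib, with the summit 122, 174 and 168 bp downstream of the start. The RPS23 pileup was 73 tags in DMSO, 47 in AMG510 and 45 in trametinib, its fold enrichment was 12.1, 10 and 10.2, and its rank 99.5, 99.5 and 99.1%. DMSO was the highest and the inhibitors were close to each other. RPS24, another gene mutated in Diamond-Blackfan anaemia, had its leading peak at chr10:78033793-78034392 in DMSO, chr10:78033846-78034524 in AMG510 and chr10:78033804-78034327 in trametinib, with the summit 168, 123 and 102 bp downstream of the start. In DMSO, AMG510 and trametinib, RPS24 reached 63, 32 and 28 tags, fold enrichments of 12.6, 7.54 and 6.91 and ranks of 99.7, 98.1 and 95.1%. RPS24 was the strongest member in DMSO, with fewer tags and a lower rank under both inhibitors.

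**Figure D3:**
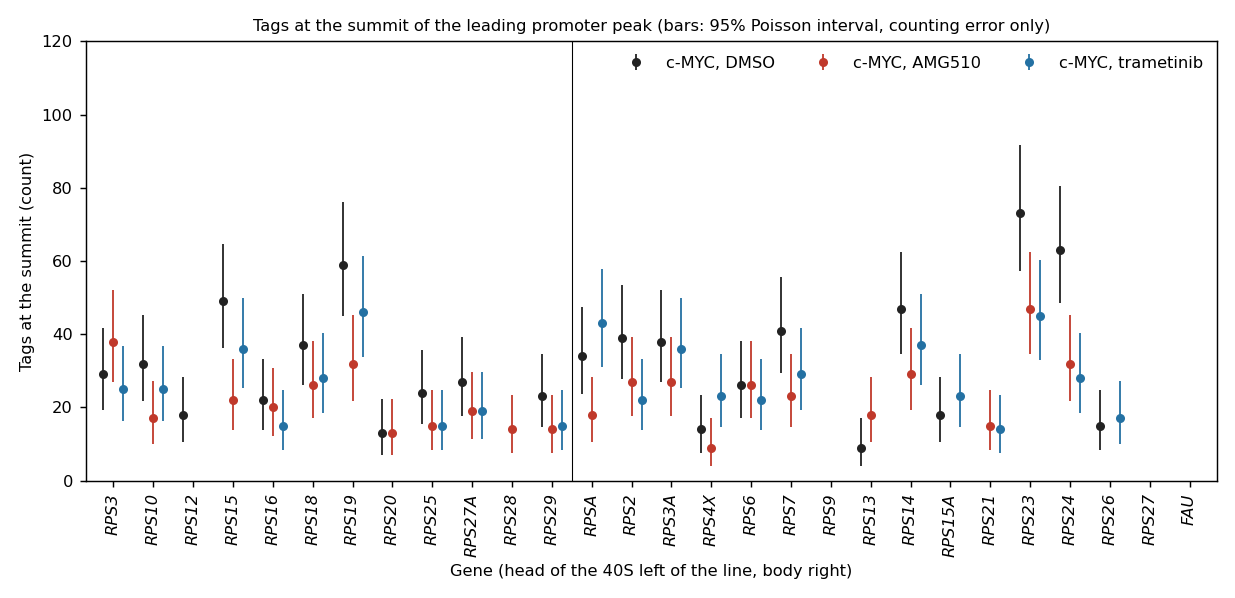
Tags at the summit of the leading promoter peak (y axis, count) for each gene (x axis), in 1 colour per c-MYC library, with exact 95% Poisson intervals as bars. RPS23, RPS24 and RPS19 had the most tags in DMSO (73, 63 and 59), and at RPS3, RPSA, RPS4X, RPS13, RPS15A and RPS26 an inhibitor library was above DMSO.

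At 7 genes a promoter peak was called in some c-MYC libraries and not in others. At least 1 c-MYC list held a promoter peak at 25 of the 28 genes (89.3%), and all 3 lists did at 18 (64.3%). Over all protein-coding genes these shares were 31.7% and 5.59%, so presence in some lists only was also common at other genes. RPS12, a protein of the beak of the head, had a promoter peak in DMSO alone, 47 bp upstream of the TSS with 18 tags and a rank of 38.6%. RPS13, a body protein at the subunit interface, had 9 tags in DMSO (rank 3.03%) and 18 in AMG510 (rank 98.4%) and no peak in trametinib. RPS20, which like RPS10 is ubiquitinated on collided ribosomes, had 13 tags in both DMSO and AMG510, at ranks of 16.6% and 61.8%, and no peak in trametinib. RPS15A had 18 tags in DMSO and 23 in trametinib, at ranks of 82.8% and 95.5%, and none in AMG510. RPS26, which touches the mRNA upstream of the start codon, had 15 tags in DMSO, 427 bp downstream in intron 1, and 17 in trametinib, 83 bp downstream in exon 1, in peaks that did not overlap. Most of these peaks rested on 9 to 18 tags, where 8 tags were the fewest called in the DMSO and trametinib lists and 7 in AMG510, so that a missing peak may still hold tags below the calling limit.

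RPS21 and RPS28 had a peak under an inhibitor and none in DMSO, which is 7.14% of the 28 genes (exact 95% interval 0.877 to 23.5) against 7.5% of all protein-coding genes. RPS21, a small body protein, had its AMG510 peak at chr20:62387143-62387411 with the summit 111 bp downstream, 15 tags, a fold enrichment of 4.23 and a rank of 42.4%. Its trametinib peak, chr20:62387107-62387302, had the summit 59 bp downstream, 14 tags, a fold enrichment of 4.16 and a rank of 30.7%. The AMG510 peak of RPS28, a protein near the mRNA exit, was at chr19:8321368-8321590 with the summit 15 bp upstream, 14 tags, a fold enrichment of 4.45 and a rank of 51.3%. All 3 peaks were weak beside those of the other members.

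RPS9, RPS27 and FAU had no promoter peak in any library. RPS9 helps to form the mRNA entry, RPS27 binds zinc, and FAU encodes RPS30 fused to a ubiquitin-like protein. The nearest c-MYC summit in DMSO lay 62577 bp from a start of RPS9, 13510 bp from RPS27 and 4452 bp from FAU. By contrast, every leading summit of the other members was within 492 bp of the canonical TSS, so the 1 kb window left a wide gap between members inside and outside it. None of the 28 genes had a c-MYC peak in its gene body outside the promoter.

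The next comparison asked whether the DMSO peaks of these genes were found again under the inhibitors. Of the 23 genes with a DMSO promoter peak, that peak was overlapped by at least 1 bp in AMG510 at 20 (87%, exact 95% interval 66.4 to 97.2) and in trametinib at 19 (82.6%, 61.2 to 95). Over all protein-coding genes with a DMSO promoter peak the shares were 36% and 30.4%. Strong DMSO peaks were found again more often at genes in general. Among all genes whose leading DMSO peak ranked at 90% or above, 71.2% were overlapped in AMG510 and 67.7% in trametinib, and among the members 15 of 15 were overlapped in both. Of the large-subunit genes with a DMSO peak, 40 of 43 were overlapped in AMG510 and 35 of 43 in trametinib, and of the mitochondrial ones 7 of 15 and 3 of 15. Both inhibitor comparisons use the same DMSO library.

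Where peaks were shared, their pileup was mostly lower under the inhibitors, by about as much as at other genes. The log2 ratio of summit tags, each scaled to the tags that entered calling in its library, had a median of -0.65 for AMG510 against DMSO over 20 genes, with 18 below 0, and of -0.45 for trametinib over 19 genes, with 16 below 0. Over all genes with overlapped promoter peaks the medians were -0.50 (1712 genes, 1523 below 0) and -0.48 (1449 genes, 1244 below 0). A gene whose peak was not called again has no ratio, so these medians describe shared peaks only. This left out fewer of the members, whose DMSO peaks were overlapped at 87% and 82.6% of genes, against 36% and 30.4% of all genes. What this does to the comparison of the medians was not tested. The values also depended on the scale. The 3 c-MYC libraries were extended to different lengths in peak calling (177 bp in DMSO, 157 bp in AMG510 and 163 bp in trametinib), which changes a pileup. When tags were set over the genome-wide background of each library, which takes in both depth and extension, the medians were -0.48 for AMG510 and -0.33 for trametinib, with -0.33 and -0.36 for all genes. The ratio of the deposited fold enrichments, each relative to the local background, was smaller in size, with medians of -0.27 (15 of 20 genes below 0) and -0.15 (16 of 19), against -0.22 and -0.23 for all genes.

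Single genes were mostly not separable from no change at this depth. With 1 library each, the interval of a ratio covers counting error only. In AMG510 it lay below 0 at 8 of 20 genes, RPSA, RPS7, RPS10, RPS14, RPS15, RPS19, RPS23 and RPS24, and above 0 at none. The RPS10 ratio compares summits 352 bp apart. The second DMSO peak of RPS10, near the AMG510 summit, held 20 tags against 17 in AMG510. Set over the genome-wide background, the interval stayed below 0 at 3 of the 8 genes, RPS15, RPS19 and RPS24. In trametinib it lay below 0 at RPS2, RPS23 and RPS24, and at RPS23 and RPS24 on the background scale. These counts were made for the members only. Member pileups were higher than those of all genes with a promoter peak, at a median of 29 against 16 tags in DMSO. Whether such counts are usual at other genes was not tested.

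RPS24 had the most negative ratio in trametinib, with 63 tags in DMSO and 28 in trametinib, a log2 ratio of -1.22 (95% interval -1.91 to -0.55). In AMG510, with 32 tags, its log2 ratio was -0.995 (-1.66 to -0.36). RPS24 was thus lower in both inhibitor libraries on both scales. RPS15 had the most negative ratio in AMG510, where 49 tags in DMSO stood against 22, a log2 ratio of -1.17 (-1.97 to -0.42), while in trametinib it was -0.49 (-1.15 to 0.16). RPS19, at 59 tags in DMSO, had log2 ratios of -0.90 in AMG510 (-1.57 to -0.26) and -0.41 in trametinib (-0.995 to 0.17). RPS23 had similar ratios in both, at -0.65 (-1.21 to -0.10) and -0.75 (-1.31 to -0.19).

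A few genes went the other way. RPS13 had the highest log2 ratio in AMG510, 0.98 (-0.25 to 2.32), which was also the highest over all 1712 genes but rested on 9 and 18 tags. RPS3 had 0.37 (-0.36 to 1.12) in AMG510 and -0.26 (-1.09 to 0.56) in trametinib. RPS4X had the highest in trametinib, 0.67 (-0.35 to 1.74), beside -0.66 (-2.04 to 0.66) in AMG510. RPSA was at 0.29 (-0.39 to 0.98) in trametinib and -0.94 (-1.85 to -0.07) in AMG510, and RPS15A at 0.31 (-0.65 to 1.28) in trametinib. Each interval that reached above 0 in these genes also held 0. By region, in AMG510 9 of 10 head genes (median -0.61) and 9 of 10 body genes (median -0.65) were below 0. In trametinib all 9 head genes (median -0.49) and 7 of 10 body genes (median -0.34) were, so the regions did not keep 1 order.

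**Figure D4:**
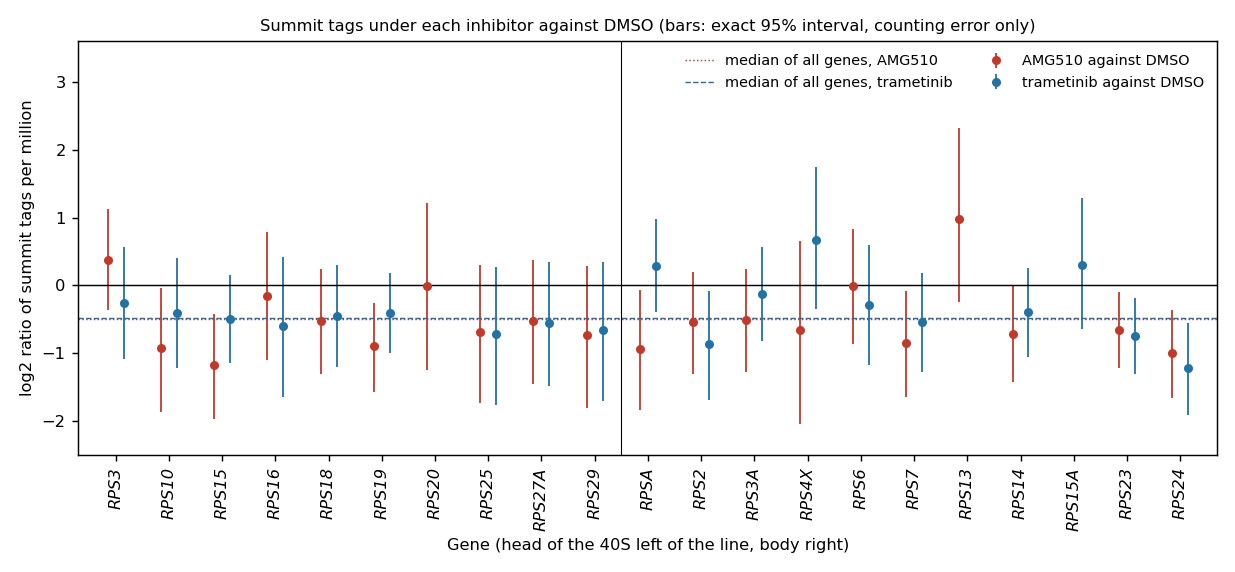
log2 ratio of summit tags, scaled to the tags in calling (y axis), of AMG510 or trametinib against DMSO for each gene with overlapped peaks (x axis), with exact 95% intervals for counting error as bars and the medians of all protein-coding genes as dashed lines. Most points lie below 0 near these medians (-0.50 and -0.48), and no bar lies wholly above 0.

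Summits at these genes, like those of the large subunit, mostly fell just downstream of the start. Leading summits lay downstream of the canonical TSS at 22 of 23 genes in DMSO, 21 of 22 in AMG510 and 21 of 21 in trametinib, against 66.5%, 67.5% and 65.1% of all genes with a promoter peak. From the nearest protein-coding TSS of the gene, 20 of 23, 15 of 22 and 19 of 21 lay downstream, against 62.6%, 60.9% and 61.4%. The AMG510 share was then 68.2% (exact 95% interval 45.1 to 86.1), near that of all genes. Leading summits were in intron 1 at 20 of 23 genes (87%), 19 of 22 (86.4%) and 18 of 21 (85.7%), against 33.9%, 36.4% and 34.9% of all genes. Large-subunit genes had 88.4%, 88.6% and 91.9% of their summits in intron 1, and 40S maturation factors 20%, 27.3% and 14.3%. The median distance was 149 bp in DMSO (quartiles 122 and 182), 146 bp in AMG510 (111.25 and 190.5) and 123 bp in trametinib (87 and 168). Medians over all genes with a promoter peak were near these, at 136, 145 and 126 bp, but their quartiles in DMSO were -175 and 333 bp. Between 50 and 300 bp downstream, limits chosen after the values were seen, lay 87%, 81.8% and 95.2% of the members' summits and 34.4%, 35.1% and 34.5% of those of all genes. The same stretch held 88.4%, 93.2% and 89.2% of the large-subunit summits and 8 of 10, 9 of 11 and 7 of 7 of those of the 40S maturation factors, so the position was not particular to the small subunit.

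These genes also shared their structure. Exon 1 of the canonical transcript had a median length of 46 bp in the 28 genes (range 20 to 252) and 186 bp in all protein-coding genes. The part of exon length in the position of the summits was not tested. Intron 1 itself was short, at a median of 291.5 bp against 3644 bp. The canonical transcript started with a C followed by 4 pyrimidines, as in a TOP tract, at 23 of 28 genes (82.1%) against 4.63% of all protein-coding genes, and at 35 of 47 large-subunit genes. Small nucleolar RNAs, which guide rRNA modification and are often encoded in introns of ribosomal protein genes, lay on the same strand in introns of 7 of the 28 genes (25%), against 1.26% of all genes.

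Summits of a gene lay close together across libraries. Over the 18 genes with a peak in all 3 lists, the 3 leading summits spanned a median of 54 bp (range 14 to 368), and at 14 genes they spanned at most 100 bp. Against DMSO, the summit of the overlapping AMG510 peak was displaced by a median of 48.5 bp (20 genes, 15 within 100 bp) and that of trametinib by 23 bp (19 genes, all within 100 bp). For all genes with overlapped peaks the medians were 78 and 64 bp, for the large subunit 40.5 and 27 bp, and for the 40S maturation factors 39.5 and 48 bp. RPS10 had the largest displacement in AMG510, 352 bp, followed by RPS4X with 197 bp.

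**Figure D5:**
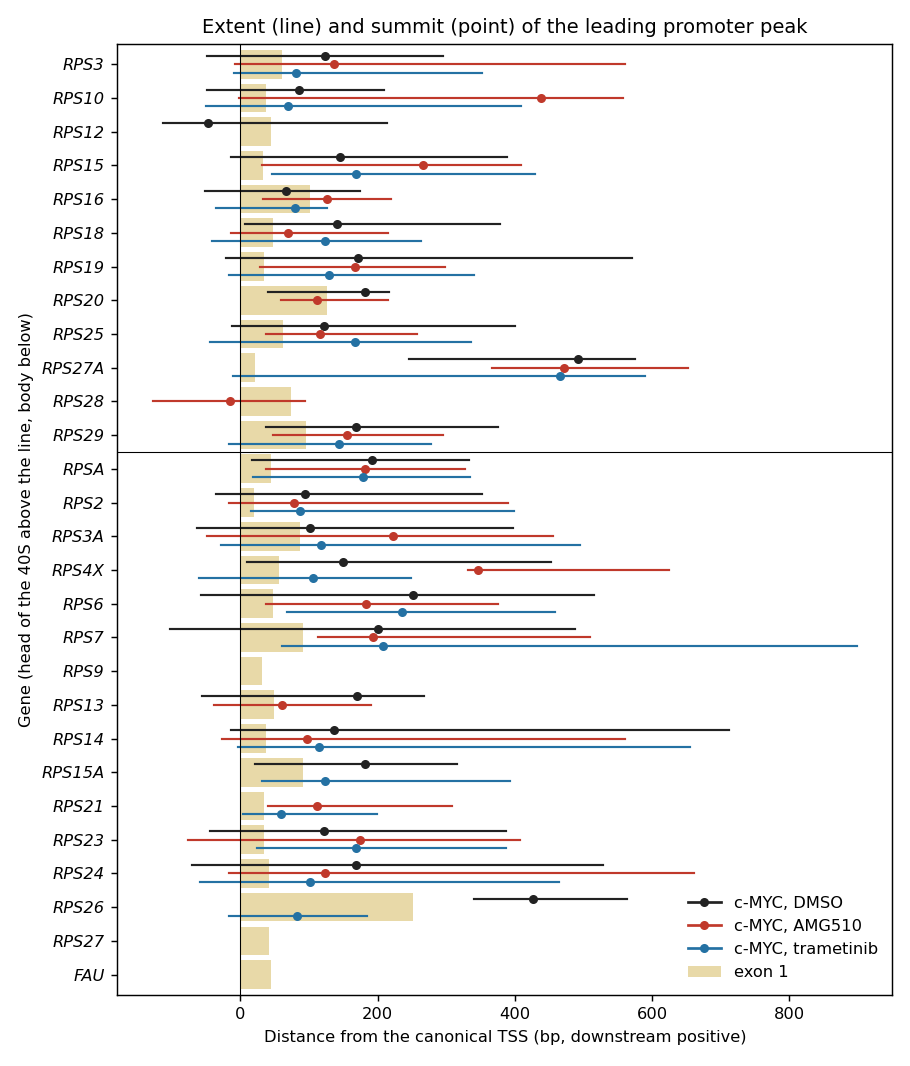
Extent (line) and summit (point) of the leading promoter peak of each gene along its own strand, in bp from the canonical TSS (x axis), in 1 colour per c-MYC library, with exon 1 shaded. Most points lie between 50 and 300 bp, past the end of exon 1, and the summits of RPS27A lie between 466 and 492 bp.

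E-boxes were present beside a minority of the summits. A canonical CACGTG, which reads the same on both strands, lay within 100 bp of the leading summit at 5 of 23 genes in DMSO (21.7%, exact 95% interval 7.46 to 43.7), 6 of 22 in AMG510 (27.3%, 10.7 to 50.2) and 5 of 21 in trametinib (23.8%, 8.22 to 47.2). Over all genes with a promoter peak the shares were 17.3%, 14.5% and 17.6%, within each of these intervals. The members' share depended on the distance allowed, at 13.0% within 50 bp and 30.4% within 250 bp in DMSO. The genes were the printed sites of RPSA, RPS2, RPS19, RPS23 and RPS27A, with RPS28 added in AMG510. With CACGCG on either strand counted as well, RPS24 was added, and the shares were 26.1%, 31.8% and 28.6% against 37.2%, 32.7% and 35.8%. RPS3A, RPS15, RPS14 and RPS7, with 38, 49, 47 and 41 tags in DMSO, had neither form within 100 bp of the summit and are strong peaks without an E-box in this window.

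Looked for in a fixed window from 250 bp upstream to 500 bp downstream of the canonical TSS, whether or not a peak was called, CACGTG was present at 11 of the 28 genes (39.3%). In the same window it was present at 14.3% of all protein-coding genes and at 22.5% of those with a DMSO promoter peak. Among members with a DMSO peak 8 of 23 had it, and among the 5 without one 3 had it, namely RPS9, RPS28 and FAU. At RPS6, RPS12 and RPS24 the site was 463, 483 and 471 bp downstream, beyond 100 bp of any leading summit. There were thus members with a peak and no site and members with a site and no peak. Over all protein-coding genes without a DMSO promoter peak, 11.6% had the site. Of the large-subunit genes, 13 of 47 had the site.

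Another protein-coding start lay within 1 kb of the leading summit at 6 genes, to which the peak could also be assigned by the 1 kb rule. The start of RPS10-NUDT3, a read-through transcript on the same strand, lay 63 bp from the RPS10 summit in DMSO. On the opposite strand were SUPT5H, 273 bp from the RPS16 summit in DMSO, VPS52, 340 bp from that of RPS18, TRAPPC4, 545 bp from that of RPS25, CLHC1, 617 bp from that of RPS27A and NDUFA7, 106 bp from that of RPS28 in AMG510. In each case the start of the ribosomal protein gene was the nearer one.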

How the data were processed

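Per the study's methods, reads were trimmed by the authors (Trimmomatic 0.39) and aligned with BWA 0.7.17 to GRCh38. They then kept alignments of high mapping quality with SAMtools 1.9, removed duplicates with Picard, converted alignments with bedtools 2.27.1 and called peaks for each library with MACS2 2.2.7.1 at default settings, less those on the ENCODE exclusion list. The mapping-quality filter can remove reads from exons shared with processed pseudogenes, which was not tested. Each deposited list gives the score (the authors' −log10 q-value times 10), the fold enrichment (a deposited ratio of pileup to background), the −log10 p-value as deposited and the −log10 q-value as deposited. The score was used as a filter and the others to describe and rank peaks within a list. What AMG510 inhibits is not reported here.

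The pileup in whole tags was recovered from the deposited fold enrichment and p-value, as was the number of tags in calling, 22700000 to 24800000 per library. Paired mates can both count as tags, so counting intervals are too narrow. The recovery was tested on simulated data. Libraries were grouped by their titles. Starts, exons and introns came from GENCODE version 44 and sequence from GRCh38, with coordinates 1-based; genes on the mitochondrial chromosome were left out. Shares carry exact binomial intervals, pileups exact Poisson intervals and tag ratios exact conditional binomial intervals at 95% (Python 3.11.15, scipy 1.17.1, pysam 0.24.0). With 1 library per group no test was run.

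The 28 genes and the comparison lists were chosen with earlier results of these data known. All 28 were accounted for by presence. Positions, tags, fold enrichment and rank were given for genes with a peak in all 3 c-MYC lists, for the 5 members of highest fold enrichment in each list and for members with a peak under an inhibitor but not in DMSO, and the other genes by range and count. A gene outside the list was named only where its start lay within 1 kb of a summit. RPS13, RPS15A, RPS20 and RPS26, the 3 genes without a peak and RPS12 were named after their values were seen. Alternatives changed the window, the set of starts, the peak filter, the overlap, the rank measure, the scaling of tags and the E-box window.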

Additional observations from a re-analysis of the deposited data

How the results depend on the processing

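Of 70 alternative values for 17 results, 64 stayed within the limits set for calling them unmoved, 6 moved and none changed sign. These limits were wide. For counts the limit was a ratio of 1.5, so a fall from 22 to 15 genes in AMG510 was called unmoved. E-box shares of 13.0% and 30.4% in DMSO, against 21.7%, were called unmoved too. The number of genes with a promoter peak was the same with windows of 500 bp and 2 kb, and fell most when only peaks with a score above 60 were kept, to 18 in DMSO, 15 in AMG510 and 17 under trametinib. The median log2 tag ratio was smaller in size from the deposited fold enrichments, at -0.27 for AMG510 and -0.15 for trametinib, and over the genome-wide background, an alternative chosen after seeing the data, at -0.48 for AMG510. Measured to the nearest protein-coding start of the gene in place of the canonical one, the median summit distance was 108 bp in DMSO, 81 bp in AMG510 and 83 bp in trametinib.

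No paired analysis was possible because the treatments had 1 library apiece, and no replicate was there to leave out. Depth limits single genes, since 9 tags carry a counting interval from 4.12 to 17.1. Differences between treatments cannot be told apart from differences between libraries.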
